A study of Homo sapiens with 2 samples.

Results

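The EGFR family ligands are 8 genes, AREG, EREG, HBEGF, TGFA, BTC, EPGN, EGF and NRG1, taken by their symbols from 30843 gene symbols in 2 RNA-seq tables. All 8 were listed, through 19 of 65535 transcripts, and 5 of them had a mean level of at least 1 FPKM (fragments scaled to transcript length and library size) and were compared, within 11435 genes above that level. PC9 is an established human lung adenocarcinoma line with an activating EGFR deletion, and MTAC-P is its derivative with resistance to EGFR tyrosine kinase inhibitors. Both were grown in DMEM with serum, and the labels give no inhibitor at harvest and do not say whether MTAC-P is 1 clone. With 1 library for PC9 and 1 for MTAC-P, the differences carry no p-value or standard error and could not be checked in replicates.

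These ligands are made as membrane-bound precursors that metalloproteases cut from the cell surface. The released factors bind EGFR and its relatives on the same cell or on neighbours, make the receptors pair, and switch on RAS, ERK and PI3K signalling. EGF, TGFA, AREG and EPGN bind EGFR, HBEGF, EREG and BTC bind both EGFR and ERBB4, and NRG1 binds ERBB3 and ERBB4. Several of these genes are themselves targets of ERK signalling, so that the pathway can feed its own ligands.

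Differences are given as the log2 ratio, log2((MTAC-P + 1)/(PC9 + 1)), on summed FPKM of the listed transcripts of a gene, which understates the difference of low genes. HBEGF, AREG, EREG and TGFA had higher levels in MTAC-P, and only HBEGF was at least 2-fold higher on this scale. The promoters of HBEGF, AREG and EREG, the 3 ligands with the largest log2 ratios, are shown because they let the sequence before each start be compared. Each is the 250 bases before the RefSeq start (GRCh38.p14), 5′ to 3′ on the gene's strand: chr5:140346604-140346853 on the minus strand for HBEGF, chr4:74444886-74445135 on the plus strand for AREG and chr4:74364895-74365144 on the plus strand for EREG. Capitals mark matches, on either strand, to 6 motifs that were searched: the TATA box TATAAA, the AP-1 site TGANTCA, the cyclic AMP response element TGACGTCA, the ETS site CCGGAA, the Sp1 site GGGCGG and the TEAD site GGAATG. Matches can overlap, as the last pair of Sp1 matches in HBEGF does.

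HBEGF: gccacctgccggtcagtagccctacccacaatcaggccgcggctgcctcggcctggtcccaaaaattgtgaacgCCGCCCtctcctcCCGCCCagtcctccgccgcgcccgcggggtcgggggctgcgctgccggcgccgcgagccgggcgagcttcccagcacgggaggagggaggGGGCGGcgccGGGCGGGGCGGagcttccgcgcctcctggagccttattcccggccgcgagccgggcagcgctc

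AREG: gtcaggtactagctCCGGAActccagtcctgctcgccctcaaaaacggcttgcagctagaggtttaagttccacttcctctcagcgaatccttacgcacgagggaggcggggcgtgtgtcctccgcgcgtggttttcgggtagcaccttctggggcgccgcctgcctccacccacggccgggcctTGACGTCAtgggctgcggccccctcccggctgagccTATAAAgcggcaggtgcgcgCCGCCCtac

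EREG: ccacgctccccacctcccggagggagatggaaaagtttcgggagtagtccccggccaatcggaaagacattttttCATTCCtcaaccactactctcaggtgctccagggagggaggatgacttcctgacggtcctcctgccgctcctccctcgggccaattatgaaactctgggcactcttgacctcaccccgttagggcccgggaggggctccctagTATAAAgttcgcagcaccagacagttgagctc

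The HBEGF window held 5 matches to the Sp1 letters and none of TATAAA, and 76.4% of its bases were G or C, against a median of 58.0% over 34788 promoter windows of the same length. The AREG window held TATAAA from 29 to 24 bases before the start and TGACGTCA from 65 to 58 bases before it, and the EREG window TATAAA from 32 to 27 bases before the start. Over all windows, TATAAA was in 10.8%, TGACGTCA in 1.64%, GGGCGG in 42.6%, CCGGAA in 14.5% and GGAATG in 11.9%. The AP-1 letters were in none of these 3 windows and in 6.59% of all windows. A match is a run of letters and not a measured binding site. Other ligand windows shared these features. A TGFA window was also rich in G and C (75.6%) and held Sp1 matches, with a log2 ratio of 0.52 for TGFA. The EPGN window held TATAAA from 29 to 24 bases before the start, with a log2 ratio of -0.21 for EPGN. A link between window and ratio was not tested.

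HBEGF, the heparin-binding ligand that also serves as the diphtheria toxin receptor, stood at 4.04 FPKM in PC9 against 16.8 in MTAC-P. This is a plain fold of 4.15 and a log2 ratio of 1.82, the largest of the ligands. Of the 11435 genes compared, 116 (1.01%) had a higher log2 ratio than HBEGF, and 3.48% reached 2-fold or more in that direction. Among the 4383 genes with a mean level of 5 to 20 FPKM, the band that holds HBEGF, 3.06% were at least 2-fold higher. Relative to the other compared genes, the level of HBEGF moved from percentile 26.1 in PC9 to percentile 65.0 in MTAC-P. Its value comes from 1 transcript, ENST00000230990, which has 6 exons and encodes 208 residues, and is the only coding transcript of the gene in GENCODE release 29. The gene lies on chromosome 5 from 140332843 to 140346631 on the minus strand.

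**Figure D1:**
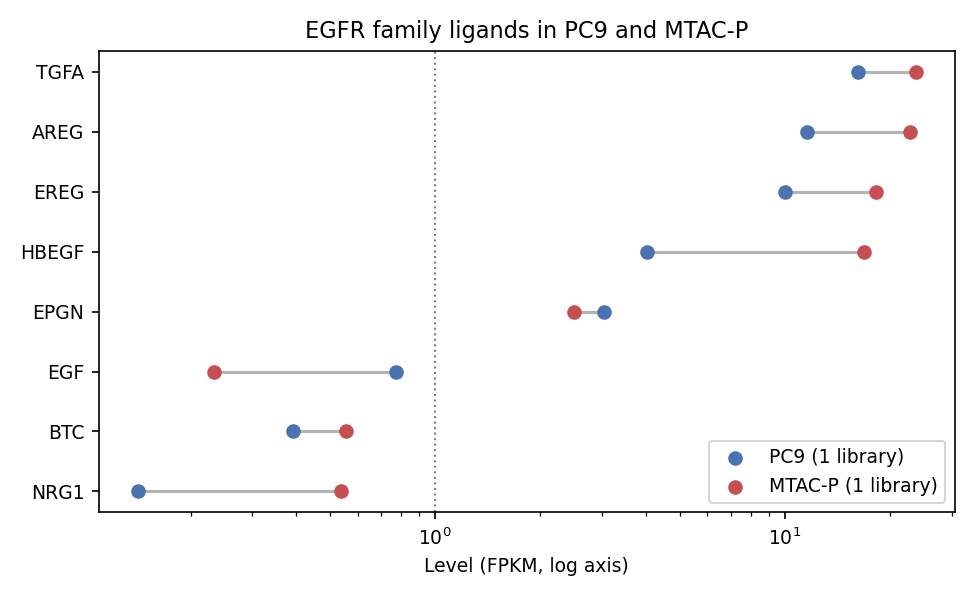
Level of each ligand in FPKM (log axis) in PC9 (blue) and MTAC-P (red), 1 library each; the dotted line marks 1 FPKM. HBEGF has the longest line among the ligands above 1 FPKM (4.04 to 16.8), while EPGN and EGF are lower in MTAC-P.

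AREG, amphiregulin, a ligand that binds EGFR and is released mainly by ADAM17, stood at 11.6 FPKM in PC9 against 22.8 in MTAC-P (log2 ratio 0.92). EREG, epiregulin, a broad ligand of EGFR and ERBB4, stood at 9.99 and 18.2 (log2 ratio 0.80). Both were higher in MTAC-P and both stayed under 2-fold, with plain folds of 1.97 and 1.82. Higher log2 ratios were seen in 4.05% of compared genes for AREG and in 5.30% for EREG. The EREG value comes from 1 transcript, the only coding one in GENCODE.

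The AREG value needs a qualification, because the tables also list AREGB, a near-identical copy of AREG that GENCODE release 29 does not hold, so that fragments could be divided between them. AREGB stood at 0.789 FPKM in PC9 against 0.504 in MTAC-P. With AREGB added, AREG stood at 12.4 and 23.3 FPKM, a log2 ratio of 0.86. Of the listed AREG transcripts, ENST00000395748, with 252 residues, held 99.5% of the gene's value in PC9 and nearly all of it in MTAC-P.

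TGFA, transforming growth factor alpha, the ligand with the highest level in both lines, stood at 16.2 FPKM in PC9 against 23.7 in MTAC-P (log2 ratio 0.52, plain fold 1.46). It lies on chromosome 2 from 70447280 to 70554193. Higher log2 ratios were seen in 10.8% of compared genes. EPGN, epigen, a weak EGFR ligand, stood at 3.04 and 2.49 FPKM (log2 ratio -0.21) and was the 1 compared ligand with a lower level in MTAC-P.

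The median log2 ratio of the 5 ligands compared was 0.80, and without HBEGF it was 0.66, while the median over all compared genes was -0.02 with 95% of genes between -1.27 and 1.17. Of the 5, 4 lay above 0, against 47.6% of all compared genes, with HBEGF past 2-fold upward and no ligand past 2-fold downward, where 4.29% of all compared genes lay. Genes at 2-fold or more in either direction made up 7.77%. HBEGF therefore lay outside the central 95% of genes and AREG, EREG, TGFA and EPGN inside it.

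**Figure D2:**
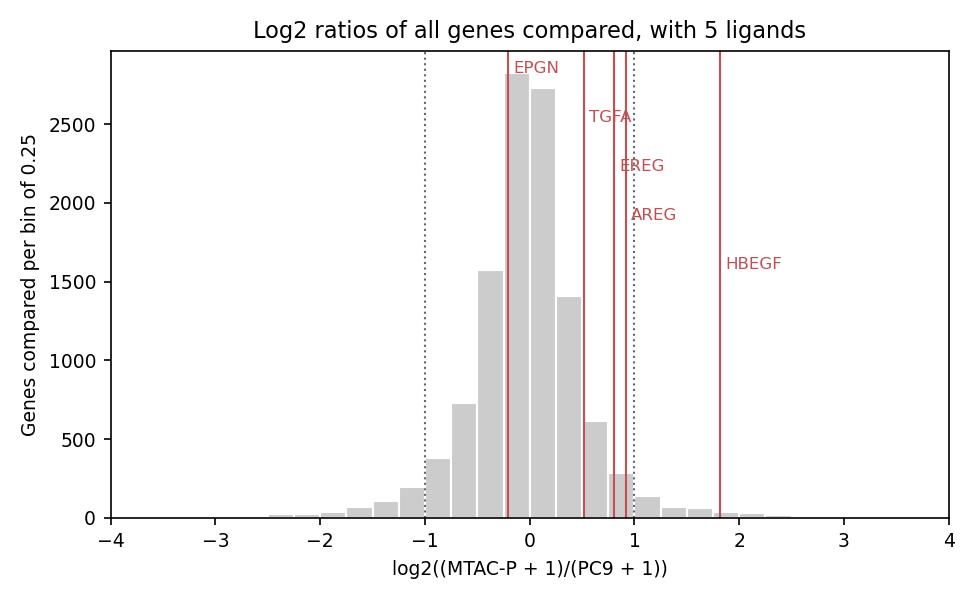
Number of compared genes per bin of 0.25 in log2 ratio (grey bars), with red lines for the 5 ligands compared and dotted lines at 2-fold in either direction. HBEGF (1.82) sits beyond the upper dotted line, AREG (0.92), EREG (0.80) and TGFA (0.52) between 0 and that line, and EPGN (-0.21) below 0.

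The remaining ligands were under a mean of 1 FPKM, so their values are levels only. BTC, betacellulin, stood at 0.391 FPKM in PC9 against 0.557 in MTAC-P. EGF, the ligand that gave the receptor its name, stood at 0.774 and 0.233. NRG1, neuregulin 1, on chromosome 8, stood at 0.141 and 0.537. EGF was lower and BTC and NRG1 higher in MTAC-P, and the plain folds of EGF (3.32 higher in PC9) and NRG1 (3.80 higher in MTAC-P) rest on values too low to weigh, since the depth is unknown. The other neuregulin genes, NRG2, NRG3 and NRG4, were listed at 0 in both libraries.

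Because FPKM is scaled to length, the levels of the ligands can be added. The 8 ligands together stood at 46.2 FPKM in PC9 against 85.3 in MTAC-P, a log2 ratio of 0.87. Without HBEGF the other 7 stood at 42.1 and 68.5 (0.69). HBEGF made up 8.76% of the ligand sum in PC9 against 19.7% in MTAC-P, while the share of TGFA was 35.1% in PC9 against 27.8% in MTAC-P. The shares of AREG (25.1% and 26.8%) and EREG (21.6% and 21.3%) were within 2 percentage points of each other in the lines. Of the difference of 39.1 FPKM between the sums, HBEGF accounted for 32.6%, AREG for 28.7%, EREG for 21.0% and TGFA for 19.1%, with EPGN and EGF slightly negative.

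The order of levels was TGFA, AREG, EREG, HBEGF, EPGN in both lines, but the spacing differed. In PC9 the highest of the first 4 stood 4.01 times above the lowest, and in MTAC-P 1.41 times. Grouped by receptor, the EGFR ligands EGF, TGFA, AREG and EPGN stood at 31.6 FPKM in PC9 against 49.2 in MTAC-P (0.62). The group that binds EGFR and ERBB4, HBEGF, EREG and BTC, stood at 14.4 and 35.5 (1.24), and its share of the sum was 31.2% in PC9 against 41.7% in MTAC-P. HBEGF gave 12.7 of the 21.1 FPKM by which this group differed. The log2 ratio of EREG (0.80) was not above that of AREG (0.92), so the grouping mostly restates HBEGF. With 1 library per line, whether neighbouring levels in this order differ beyond their spread cannot be said.

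**Figure D3:**
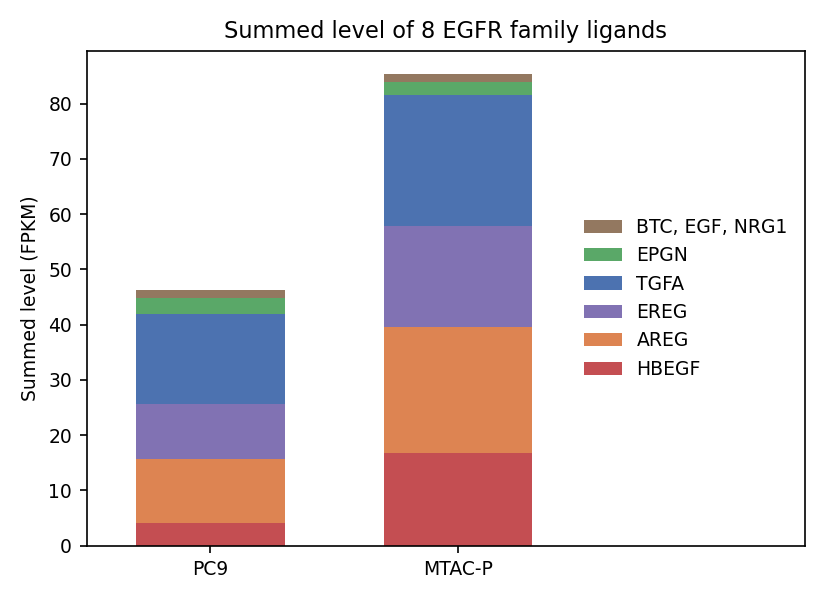
Summed level of the 8 ligands in FPKM, stacked by ligand, for PC9 and MTAC-P (1 library each). The stack is 46.2 high in PC9 against 85.3 in MTAC-P, and the HBEGF block at the base is 4.04 and 16.8.

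Single transcripts differed from the gene sums for TGFA and EPGN. Cufflinks divides fragments among overlapping transcripts by a model, so these splits are estimates without an error here. The main TGFA transcript ENST00000295400, with 160 residues and 3830 noncoding bases, stood at 15.3 FPKM in PC9 against 20.4 in MTAC-P (log2 ratio 0.39). ENST00000418333, which encodes 159 residues and has 748 noncoding bases, stood at 0.968 and 3.33 (1.14), so its share of TGFA was 5.97% in PC9 against 14.1% in MTAC-P. The other TGFA transcripts were listed at 0 in PC9 and at 0 or 0.00377 in MTAC-P.

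For EPGN the transcripts went opposite ways. ENST00000413830, with 5 exons and 154 residues, stood at 2.73 FPKM in PC9 against 1.37 in MTAC-P (log2 ratio -0.66). ENST00000332112, with 4 exons and 133 residues, stood at 0.307 and 1.13 (0.70). The shorter form held 10.1% of EPGN in PC9 against 45.2% in MTAC-P, a difference that the near-equal gene sums do not show. Among the 7 listed NRG1 transcripts, 4 were higher in MTAC-P, led by ENST00000356819 (0.106 and 0.249) and ENST00000287840 (0.0132 and 0.161), and 3 were lower, at values near 0.

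**Figure D4:**
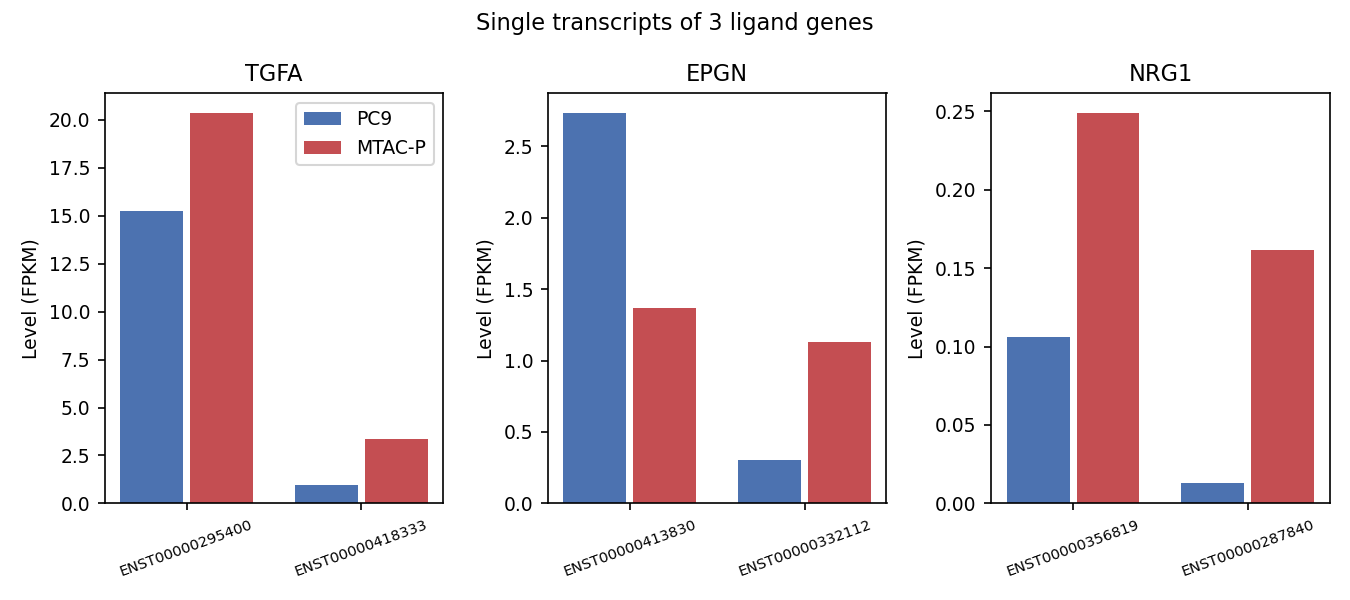
Level in FPKM of the 2 most abundant listed transcripts of TGFA, EPGN and NRG1 in PC9 (blue) and MTAC-P (red), with separate axes that start at 0. Both TGFA and both NRG1 transcripts are higher in MTAC-P, while the EPGN transcripts differ in direction (2.73 to 1.37 and 0.307 to 1.13).

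The tables hold part of the annotated transcripts, which bears on how complete each sum is. All coding transcripts of GENCODE release 29 were listed for HBEGF and EREG, 1 of 2 for AREG and for BTC, 4 of 7 for TGFA, 2 of 8 for EPGN, 1 of 3 for EGF and 3 of 18 for NRG1. The values for EPGN and NRG1 in particular cover a small part of their transcripts. For the other genes named here this was not counted, so their levels, very low ones included, are those of listed transcripts only.

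EPGN, EREG, AREG and BTC lie in this order within 486 kb of chromosome 4 (74308473 to 74794686), with no other listed coding gene between them. Their log2 ratios were -0.21, 0.80, 0.92 and, for BTC under the minimum mean, 0.16, so the higher levels were those of EREG and AREG in the middle. Of the 6 coding genes beside the cluster, 4 were compared and none reached 2-fold: MTHFD2L (-0.53), a mitochondrial folate enzyme, PARM1 (-0.69), RCHY1 (-0.85), a ubiquitin ligase, and THAP6 (-0.03). The chemokine gene CXCL3 stood at 1.07 FPKM in PC9 against 0.708 in MTAC-P, and CXCL2 was at or near 0 in both.

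Around HBEGF, 5 of 6 neighbours were compared and none reached 2-fold. PFDN1, a prefoldin subunit and the nearest of them on 1 side, stood at 8.58 FPKM in PC9 against 16.6 in MTAC-P (0.88). ANKHD1 (-0.18), SRA1 (-0.39), CYSTM1 (-0.01) and IGIP (-0.22) lay close to or under 0, and SLC4A9 stood near 0 in both lines. Around TGFA, PCYOX1 (-0.75), SNRPG (-0.12) and FAM136A (0.28) were compared and none reached 2-fold.

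**Figure D5:**
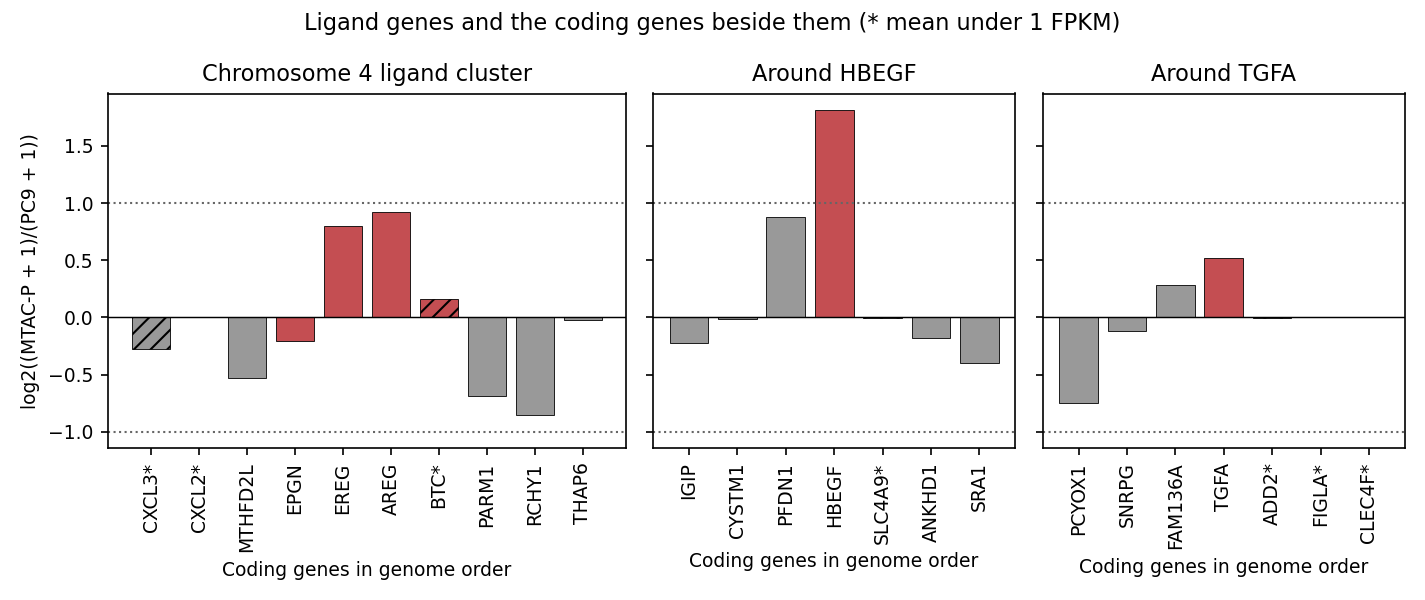
Log2 ratio of ligand genes (red) and of the 3 listed coding genes on either side (grey), in genome order, for the chromosome 4 cluster, HBEGF and TGFA; hatched bars and asterisks mark genes under a mean of 1 FPKM and dotted lines mark 2-fold. HBEGF (1.82) is the one bar past 2-fold, and EREG and AREG stand above 0 between lower neighbours.

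Of the 4 receptor genes 3 were compared, and none reached 2-fold. EGFR stood at 196 FPKM in PC9 against 239 in MTAC-P (log2 ratio 0.28), ERBB2 at 3.16 and 2.87 (-0.10), ERBB3 at 17.4 and 9.92 (-0.75), and ERBB4 at 0 and 0.0101. On the listed transcripts, EGFR thus stood 4.25 times above the summed ligands in PC9 and 2.80 times in MTAC-P. The listed transcripts of ERBB4, the other receptor of HBEGF, EREG and BTC, were at or near 0 in both libraries.

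Of 16 genes that cut, carry or inhibit the release of ligands, 15 were compared, 6 lay above 0, 1 was at least 2-fold higher and none lower, with a median log2 ratio of -0.15. Over all compared genes 47.6% lay above 0, 3.48% were 2-fold higher and 4.29% 2-fold lower, so these counts are near the background. The 1 gene was the protease ADAM8 (2.03 and 5.07 FPKM), just at the 2-fold limit. The most abundant, the metalloprotease inhibitors TIMP1 (88.7 and 61.8, -0.51) and TIMP3 (44.4 and 26.3, -0.73), had lower levels in MTAC-P. ADAM17, the main sheddase of HBEGF, AREG, EREG and TGFA, stood at 28.4 and 32.3 FPKM (0.18), and ADAM10, which cuts EGF and BTC, at 23.4 and 25.4 (0.11). The other proteases went both ways. ADAM15 stood at 17.0 and 34.0 (0.96), while FURIN had a log2 ratio of 0.22 and BACE1 of 0.05. ADAM19, under the minimum mean, stood at 0.146 and 1.05. ADAM9 stood at 4.02 and 1.93 (-0.77), RHBDL2, a rhomboid protease, had a log2 ratio of -0.58, BACE2 of -0.36 and ADAM12 of -0.23. ADAM17, ADAM10 and these other proteases were named after their values were seen.

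All 8 genes for surface partners of HBEGF and heparan sulfate carriers were compared, with a median log2 ratio of 0.05, 5 above 0 and 1 at least 2-fold lower, beside 47.6% above 0 and 4.29% at 2-fold lower over all compared genes. That gene was GPC1, which encodes a heparan sulfate proteoglycan (55.0 and 19.0 FPKM, -1.49). The most abundant were CD44 (309 and 325, 0.08) and CD9 (229 and 154, -0.57), a tetraspanin that binds the HBEGF precursor.

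Of 20 genes that respond to EGFR and ERK signalling 18 were compared, 10 lay above 0 and none reached 2-fold, with a median of 0.12. Over all compared genes 47.6% lay above 0 and 7.77% reached 2-fold in either direction. Single members went both ways, from EGR1 (-0.81) to FOSL1 (0.86), both named after their values were seen. The most abundant were CCND1, the cyclin of early cell cycle entry (127 and 137 FPKM, 0.11), and IER3, an immediate early gene (98.2 and 125, 0.34). The list as a whole lay closer to 0 than the median of the 5 ligands (0.80), a comparison of descriptions with no test.

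The libraries carried epithelial genes: all 8 epithelial markers were compared, with a median log2 ratio of -0.06, 1 above 0 and none at 2-fold. The most abundant were KRT18 (2329 and 2720 FPKM), the 1 above 0, and KRT19 (549 and 430). Of 9 lung lineage markers 7 were compared, with a median of 0.33, 5 above 0, 1 at least 2-fold higher and none lower. Beside both lists, 47.6% of all compared genes lay above 0, 3.48% were 2-fold higher and 4.29% 2-fold lower. FOXA1 was the highest lung marker (50.9 and 34.4, log2 ratio -0.55), and the others compared had low levels in both lines. SFTPC stood at 1.21 and 2.80, and GATA6 was the gene at 2-fold (0.568 and 3.41, log2 ratio 1.49). NKX2-1, a defining factor of lung adenocarcinoma, stood at 0.0787 and 0. Of 6 leukocyte markers CD68 was compared (22.2 and 28.8), CD14 stood at 1.19 and 0.605, and PTPRC, the pan-leukocyte marker, at 0.0910 and 0.0460. Of the 7 listed fibroblast and endothelial markers CDH5 (3.34 and 4.13) and COL1A1 (1.20 and 1.33) were compared. NKX2-1 and PTPRC were named as defining markers after their values were seen. The listed values summed to 693444 FPKM in PC9 against 685082 in MTAC-P, and mitochondrial transcripts made up 23.5% and 20.3% of these sums.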

How the data were processed

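RNA-seq values of PC9 and MTAC-P, 1 library each, were analysed; the series text speaks of triplicates, which the tables do not show. Reads were handled with Trim Galore, TopHat and Cufflinks on hg38, per the submitters' processing notes; the sources used here give no versions. Each deposited table has a single FPKM value per transcript, a unit inferred from Cufflinks in those notes, since the tables name none; depth is unknown. The tables end at 65535 transcripts, and none of these has an ID number above 437205. Transcripts with higher ID numbers are thus missing from every gene sum and from the shares over all compared genes. Transcripts with the same symbol were summed, genes whose mean reached 1 FPKM were compared with a pseudocount of 1, and 2-fold was counted, with pandas 2.3.3 in Python 3.11.15. Transcript structures and gene positions come from GENCODE release 29 (GRCh38), which held 84.5% of the listed IDs, and promoters from RefSeq, with 7 ligands matched and NRG1 not used. The annotation behind the deposited values is not known. It was not GENCODE release 29, which lacks AREGB and part of the listed IDs, so the structures given here may differ from those quantified. Named genes were all ligands, their transcripts, receptors and neuregulins, list members at 2-fold with the 2 most abundant, neighbouring genes, and the 2 coding genes nearest to each ligand; genes outside this rule are marked where they appear. The members and the 10 other lists were chosen with earlier results of these data known. The summing and ratio steps were run on simulated tables with known differences and no noise, which checks the arithmetic only. Alternatives changed the pseudocount, the filter, the scaling, the transcripts summed and the fold.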

Additional observations from a re-analysis of the deposited data

How the results depend on the processing

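HBEGF was the 1 ligand at 2-fold under each of 12 alternatives to the pseudocount, scaling, filter and transcripts summed, with a log2 ratio of 1.27 to 2.03. Only the pseudocount and the scaling could move its ratio. With 1 listed transcript and a mean above each filter, HBEGF keeps its ratio of 1.82 under the other alternatives by construction. The ratio ranged from 0.75 to 0.97 for AREG, 0.63 to 0.86 for EREG, 0.39 to 0.54 for TGFA and -0.66 to -0.10 for EPGN, the lowest with the most abundant transcript only. The median of the compared ligands ranged from 0.47, with no filter, which takes in BTC, EGF and NRG1, to 0.86, the log2 ratio of the ligand sum from 0.82 to 0.89, and the HBEGF share from 8.61% to 9.02% in PC9 and 19.6% to 20.8% in MTAC-P. At 1.5-fold 3 ligands were counted (AREG, EREG and HBEGF), of 2307 genes (20.2% of those compared). At 4-fold 0 ligands were counted, of 174 genes (1.52%). The 888 genes at 2-fold became 1344 with a pseudocount of 0.1, 284 with a pseudocount of 5 and 431 at a mean of at least 5 FPKM, which compares fewer genes. With a pseudocount of 0.1, EGF (-1.39) and NRG1 (1.40), both under the minimum mean, passed 2-fold. Adding AREGB to AREG and keeping only transcripts in GENCODE 29 were chosen after seeing the data. No paired analysis was possible because PC9 and MTAC-P had 1 library apiece, and no replicate could be left out. Depth is unknown, so no precision can be given for the low ligands.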

Other observations

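The 12 genes for uptake and degradation of ERBB receptors were all compared, with a median log2 ratio of 0.04, 9 above 0 and none at 2-fold. Over all compared genes 47.6% lay above 0 and 7.77% reached 2-fold in either direction. Some of the 9 lay next to 0, as CBL (0.01) and GRB2 (0.02) did, named after their values were seen. The most abundant were EPS15, an adaptor of clathrin-coated pits (21.5 FPKM in PC9 and 33.5 in MTAC-P, 0.62), and MVP, the major vault protein (24.4 and 25.2, 0.05).

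Coding genes closest to each ligand were found by the distance between log2(FPKM + 1) values over the 2 libraries, which with 2 values says only that level and ratio were alike. Closest to HBEGF were SGK1, a serum- and glucocorticoid-induced kinase (3.97 and 17.4 FPKM, distance 0.05), and SEC11C, a signal peptidase subunit (4.07 and 14.7, distance 0.18). Closest to AREG were PPP1R18 (11.5 and 23.0, distance 0.01) and MDFI (11.4 and 23.1, distance 0.03). For EREG they were MTERFD2 (10.3 and 18.5) and SLC39A8, a zinc transporter (9.64 and 18.5), both at a distance of 0.05. For TGFA they were KLHL21 and SNAPC5, both at 0.04, and for EPGN SIK2 and ANKRD12, both at 0.01.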
